A study of Rattus norvegicus with 36 samples.

Results

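The genes of the constitutive proteasome were examined in the livers of 36 male rats given TBBPA-DBPE or vehicle. They were taken as the probe sets whose platform annotation names exactly 1 gene with a symbol starting Psma, Psmb, Psmc or Psmd, without the interferon-induced Psmb8, Psmb9 and Psmb10. The rule uses no measured value. It gave 45 of the 31042 probe sets tested and 34 of the 14217 genes that a probe set names alone. Of the 34 genes, 30 encode subunits: 7 of the alpha ring, 6 of the beta ring, 6 of the ATPase ring and 11 other subunits of the regulatory particle. The other 4 are the assembly chaperones Psmd5, Psmd9 and Psmd10, and Psmc3ip, which shares a symbol prefix but encodes a cofactor of meiotic recombination and no subunit. The catalytic subunit Psmb6 has no value here, because its probe set also names a near-identical gene. A single probe set stands for 27 genes, while 3 genes have 2 probe sets and 4 have 3.

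TBBPA-DBPE is a brominated flame retardant, an ether of tetrabromobisphenol A. Male Harlan Sprague Dawley rats, 7 weeks old at the start, were gavaged with it in corn oil vehicle for 5 days in succession, and the left liver lobe was taken 1 day after the last dose. The control group received corn oil alone (vehicle). The low doses were 0.1 mg/kg and 0.94 mg/kg, the middle dose was 9.4 mg/kg, and the high doses were 94.3 mg/kg and 943 mg/kg. Each of the 6 groups held 6 animals with 1 array per animal. Corn oil was common to all 6 groups, so that the comparisons are between dosed and vehicle-gavaged animals, and all 5 share the same 6 vehicle arrays.

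The proteasome degrades proteins that carry ubiquitin chains. Its core particle is a barrel of stacked alpha and beta rings, in which the alpha rings gate entry and certain beta subunits cut the chain. The regulatory particle caps the barrel: non-ATPase subunits bind and remove ubiquitin, and a ring of ATPases unfolds the substrate and feeds it to the core. In mammalian cells the transcription factor Nfe2l1 raises many subunit genes when proteasome activity falls, and in liver the complex serves the turnover of cytosolic and endoplasmic reticulum proteins.

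Promoter windows are shown for genes to which the values below return: Psma1 and Psma2, which varied most closely with the other members among genes that have a window, and Psmb5, which encodes a catalytic subunit. The windows run from 250 bases before to 50 bases after the annotated start, printed 5′ to 3′ on the gene's strand, from RefSeq on GRCr8. They lie at chr1:177887808-177888107 for Psma1, chr17:55260392-55260691 for Psma2 and chr15:32047330-32047629 for Psmb5, all on the minus strand. Capitals mark matches to CCAAT, the motif bound by NF-Y, in Psma1 and Psma2, and to TGACNNNGC, the core of the antioxidant response element, in Psmb5.
Psma1: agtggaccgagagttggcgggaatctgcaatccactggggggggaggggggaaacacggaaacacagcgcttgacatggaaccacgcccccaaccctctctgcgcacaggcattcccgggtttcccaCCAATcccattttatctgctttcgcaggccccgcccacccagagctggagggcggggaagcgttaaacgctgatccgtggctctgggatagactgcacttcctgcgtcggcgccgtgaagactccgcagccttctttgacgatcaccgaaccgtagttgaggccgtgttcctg
Psma2: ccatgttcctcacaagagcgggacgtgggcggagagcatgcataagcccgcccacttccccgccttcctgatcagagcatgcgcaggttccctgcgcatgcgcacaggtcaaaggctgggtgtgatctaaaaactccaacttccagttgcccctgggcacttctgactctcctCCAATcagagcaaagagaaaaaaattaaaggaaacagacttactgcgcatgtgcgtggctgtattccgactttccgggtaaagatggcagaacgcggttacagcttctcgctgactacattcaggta
Psmb5: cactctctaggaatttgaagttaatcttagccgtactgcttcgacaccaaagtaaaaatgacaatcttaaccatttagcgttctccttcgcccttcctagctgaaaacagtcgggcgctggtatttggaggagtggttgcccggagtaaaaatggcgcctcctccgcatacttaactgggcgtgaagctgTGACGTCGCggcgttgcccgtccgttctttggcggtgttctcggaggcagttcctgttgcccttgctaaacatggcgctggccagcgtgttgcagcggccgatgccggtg
Both strands were searched for both motifs, and overlap between the motifs was not excluded. Of the 34 genes, 30 had a window, and Psma7, Psmd6, Psmd12 and Psmd14 were not covered. CCAAT was present in 17 of the 30 windows (56.7%) and in 37.5% of the 33469 rat windows of the same length. TGACNNNGC was present in 6 of 30, those of Psma3, Psmb2, Psmb5, Psmd1, Psmd3 and Psmd9, and in 12.1% of all windows. A match describes the letters of the window and is not evidence of binding.

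Expression is given as the authors' log2 values (RMA) per probe set. Differences are log2 dose minus vehicle with the SE of a limma fit over all 36 arrays, n = 6 animals per group, and adjusted p-values are Benjamini-Hochberg values over all 31042 probe sets. Levels of different probe sets are not compared, since probes differ in affinity. Array medians lay between 4.59 and 4.66, the correlation of any pair of arrays between 0.989 and 0.997, and no pair of arrays held identical values. Markers of hepatocytes were high in every animal, with a mean of 14.40 for Alb. In bulk liver RNA, fewer cells of a type and less RNA per cell cannot be told apart. No filter on low values was applied, so all 45 probe sets were tested. Of these, 5 lay below every array median (Psmb5 1385531_at and 1385532_x_at, Psmc4 1381794_at, Psmd9 1397686_at and Psmd11 1380252_at). The reference lists a pseudogene for 14 of the 34 genes, and probes could not be tested for cross-hybridisation to these near-identical copies.

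The comparison of each dose with vehicle asked whether the compound changed proteasome gene expression. No member passed the limma test at any of the 5 doses, and neither did any other probe set on the array (0% called at each dose). The smallest adjusted p of a member was 0.883, 0.999, 0.980, 0.621 and 0.866 in ascending order of dose. At an unadjusted p under 0.05, limma gave 4, 2, 4, 1 and 1 members in the same order, beside 5.62%, 4.16%, 4.85%, 6.9% and 5.74% of all probe sets. The counts correspond to 8.89%, 4.44%, 8.89%, 2.22% and 2.22% of the 45 members. All of these members were higher than vehicle, as were 3%, 2.1%, 2.21%, 3.68% and 3.07% of all probe sets at that p. An ordinary linear model without moderation also gave 0 calls at each dose.

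The intervals were narrow. For the probe set of highest mean per gene, the 95% interval of the difference lay within 1.3-fold of vehicle in either direction for 34 of 34 genes at each of the 5 doses. The widest was that of Psmc3ip at 0.94 mg/kg, which reached 1.26-fold. Over the 45 probe sets the count was 44 at each dose, all but Psmd14 1386073_at. Of all probe sets, 90.2%, 91.4%, 90.3%, 89.4% and 90.2% lay within that limit in ascending order of dose. The interval lay within 1.5-fold for 45 of 45 probe sets at every dose except 9.4 mg/kg, where the same probe set of Psmd14 reached 1.54-fold. The corresponding shares of all probe sets were 98.1%, 98.2%, 97.8%, 97.6% and 97.9%. Most members are bright, and bright probe sets vary less between animals. No share among bright probe sets stands beside either limit. The median difference of the 45 probe sets was -0.0031, 0.02, 0.03, 0.03 and 0.03 in ascending order of dose, and that of all probe sets lay between -0.0060 and 0.0034. Single animals moved these medians by over 1.5 times. At 0.1 mg/kg the sign turned, to 0.02 without replicate 4 of that dose and to 0.0047 without vehicle replicate 1. At 0.94 mg/kg the median was 0.0077 without vehicle replicate 6 and 0.05 without replicate 2 of the dose. It was 0.02 at 9.4 mg/kg without replicate 4, 0.02 at 94.3 mg/kg without replicate 5 and 0.02 at 943 mg/kg without replicate 3.

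**Figure D1:**
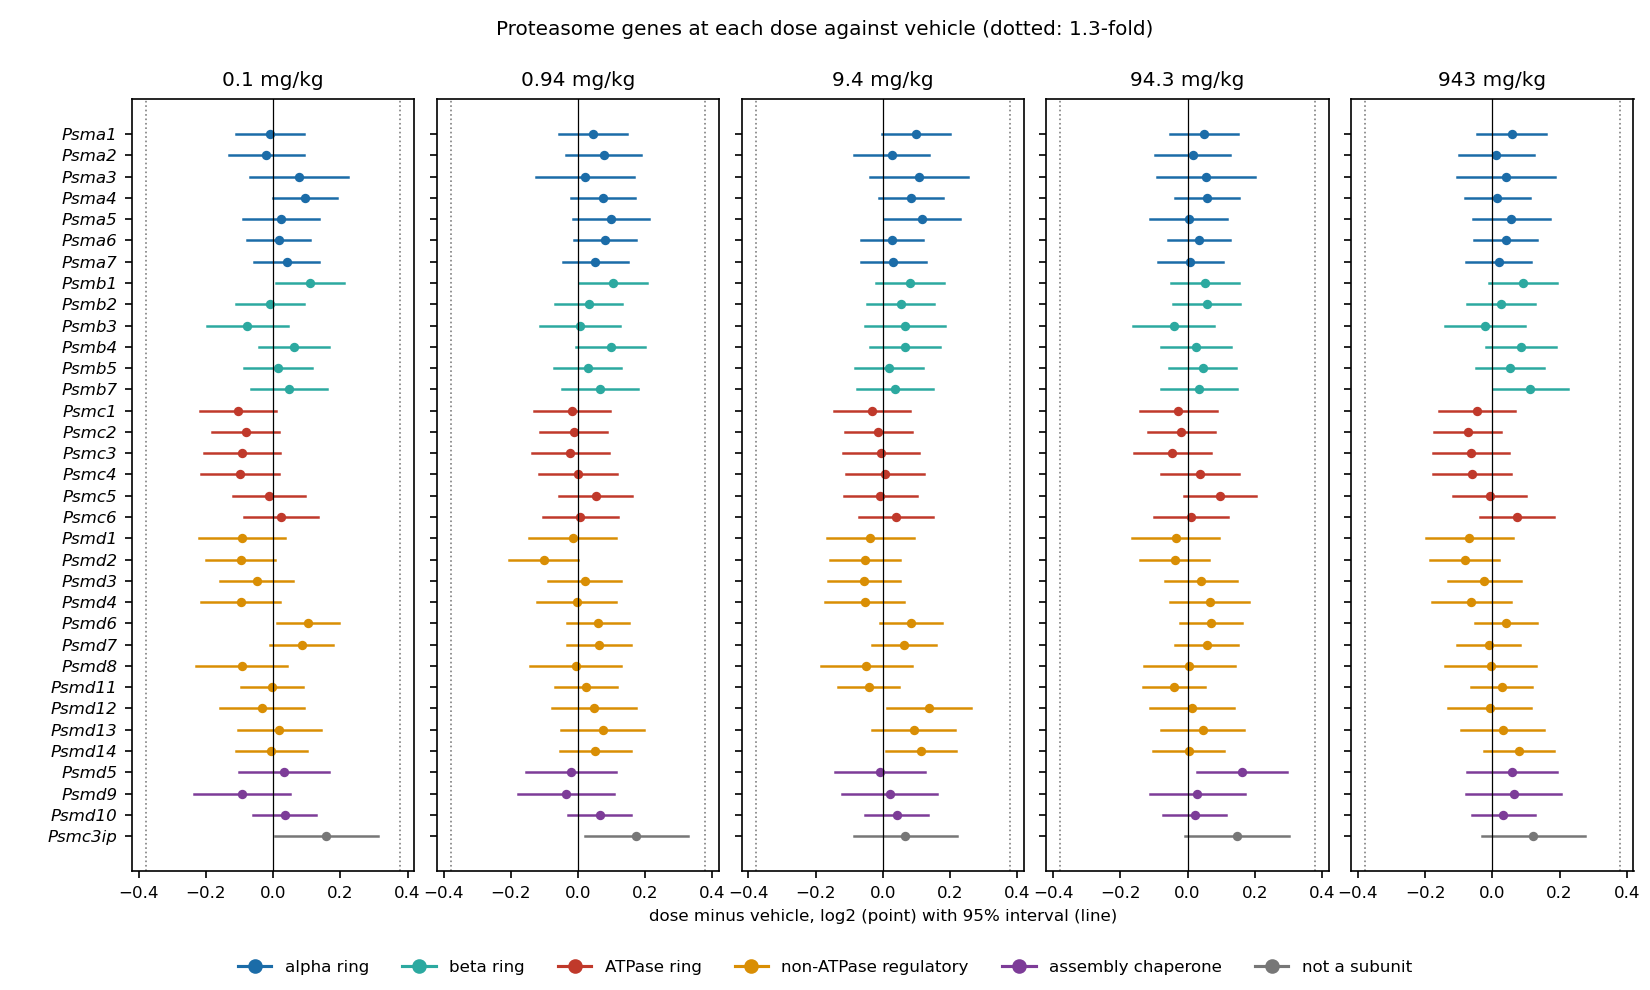
Log2 difference from vehicle (x axis) for the probe set of highest mean of each of the 34 genes (rows, coloured by their place in the complex) at the 5 doses (panels), as the limma estimate (point) with its 95% interval (line). Dotted lines mark 1.3-fold, and none of the intervals crosses them, the widest being that of Psmc3ip at 0.94 mg/kg.

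The 7 alpha ring genes, which form the gated outer rings of the core, lay slightly above vehicle at most doses. The count above the vehicle mean was 5 of 7 at 0.1 mg/kg and 7 of 7 at each of the other 4 doses, with median differences of 0.02, 0.07, 0.09, 0.03 and 0.04. Over all probe sets, 49.9%, 49.2%, 47.1%, 51.6% and 49.7% were higher at these doses. The 5 counts share the vehicle arrays and are not independent. Genes of a ring also varied together between animals, so genes counted here and below are not separate observations. The median pairwise r was 0.46 for alpha, 0.54 for beta, 0.50 for ATPase and 0.32 for non-ATPase genes. Vehicle replicate 6 had the lowest alpha ring mean of its group, 9.73, and replicate 5 the next, 9.80. In vehicle the mean of the 7 genes lay at 9.73, 9.83 and 9.84 in the lowest, median and highest animal, at 0.1 mg/kg at 9.78, 9.84 and 9.90, and at 0.94 mg/kg at 9.75, 9.88 and 9.98. The values were 9.78, 9.87 and 9.96 at 9.4 mg/kg, 9.80, 9.82 and 9.91 at 94.3 mg/kg, and 9.82, 9.83 and 9.92 at 943 mg/kg. The median at 0.94 and 9.4 mg/kg thus lay above the highest vehicle animal, with 4 and 5 of 6 animals above it. At 94.3 and 943 mg/kg 2 of 6 did so. At 0.1 mg/kg the median of 9.842 also lay just above the highest vehicle animal, at 9.841. The ranges of all dose groups overlapped that of vehicle.

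Among single alpha ring genes, Psma1 lay at 9.88, 9.95 and 10.05 in the lowest, median and highest vehicle animal and at 9.96, 10.04 and 10.18 at 9.4 mg/kg. Only 2 of these dosed animals were above the vehicle range, and the difference was 0.10 ± 0.0499 (SE, adjusted p = 0.980). Psma4 at 0.1 mg/kg (0.10 ± 0.0471, adjusted p = 0.888) and Psma5 at 9.4 mg/kg (0.12 ± 0.0561, adjusted p = 0.980) were named with their values in view. They were the alpha ring genes with an unadjusted p under 0.05 at any dose. For Psma5 the vehicle animals spanned 10.19 to 10.44 and 5 of 6 animals at 9.4 mg/kg lay above that range. Psma2 stayed between 9.83 and 10.17 over all 36 animals, with differences from -0.02 to 0.08. Psma6 ranged from 10.94 to 11.20 and had a difference of 0.04 at 943 mg/kg.

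The 6 measured beta ring genes, which hold the proteolytic chamber, were higher than vehicle in 4, 6, 6, 5 and 5 cases in ascending order of dose, with medians of 0.03, 0.05, 0.06, 0.04 and 0.07. The catalytic subunit Psmb5 (1371348_at), which carries the chymotrypsin-like activity, lay at 10.50, 10.54 and 10.61 in the lowest, median and highest vehicle animal. At 943 mg/kg it lay at 10.56, 10.59 and 10.63, a difference of 0.05 with a 95% interval from -0.05 to 0.15 (adjusted p = 0.912). The groups overlapped, with 3 of 6 dosed animals above the vehicle range. Its 2 other probe sets differed by 0.08 each at this dose, from signals below every array median.

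Psmb7, which carries the trypsin-like activity, lay at 8.93, 9.05 and 9.08 in vehicle and at 9.08, 9.14 and 9.21 at 943 mg/kg. Here 5 of 6 dosed animals were above the vehicle range, and the difference of 0.11 ± 0.0554 did not pass (limma adjusted p = 0.866). At the other doses Psmb7 differed by 0.03 to 0.07. The non-catalytic Psmb1 lay at 10.91, 10.95 and 11.03 in vehicle and at 10.95, 11.08 and 11.12 at 0.1 mg/kg. At 0.1 mg/kg 5 of 6 animals exceeded the vehicle range. Its difference was 0.11 ± 0.0496 there, and 0.10 and 0.09 at 0.94 and 943 mg/kg against the same vehicle arrays. The adjusted p was 0.883, 0.999 and 0.868.

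Psmb4, another non-catalytic beta subunit, was the 1 member whose 6 dosed animals at 943 mg/kg all lay above the vehicle range, as did 0.164% of all probe sets. It was singled out for this after its values were seen. The vehicle animals lay at 11.05, 11.13 and 11.16 and the dosed animals at 11.16, 11.21 and 11.25, so that the groups nearly met. The difference was 0.08 ± 0.0510 (limma adjusted p = 0.868), and it was 0.03 at 94.3 mg/kg. Psmb4 also differed by 0.10 at 0.94 mg/kg, where 5 of 6 animals were above the vehicle range. Psmb3 was the beta ring gene with negative differences at 0.1, 94.3 and 943 mg/kg, of -0.08, -0.04 and -0.02.

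**Figure D2:**
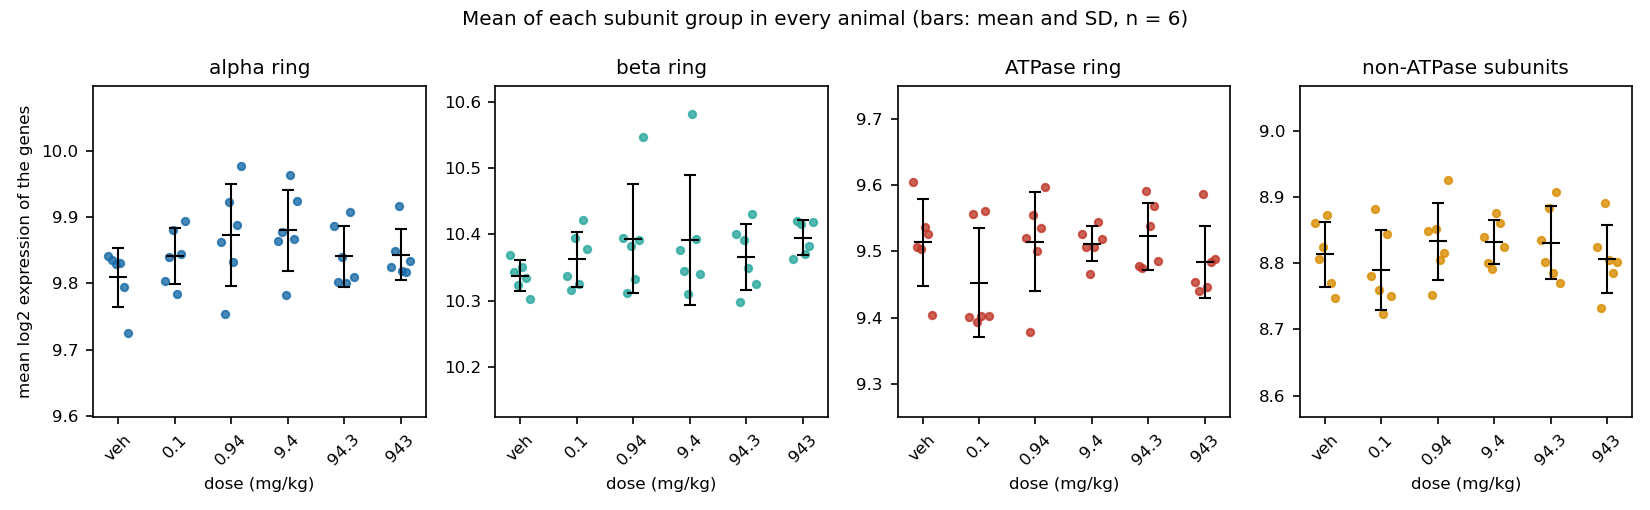
Mean log2 expression of the genes of each subunit group (y axis, own range per panel) in every animal (points) by dose in mg/kg (x axis, veh is vehicle), with the group mean and SD (bars, n = 6). The 6 groups overlap in all 4 panels, and the vehicle alpha ring panel holds 1 low animal at 9.73.

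The 6 genes of the ATPase ring, which unfolds substrates, lay on both sides of vehicle. Higher than vehicle were 1, 2, 2, 3 and 1 of 6 in ascending order of dose, with medians of -0.09, -0.0066, -0.0064, -0.0042 and -0.05. At 0.1 mg/kg, Psmc1 lay at 8.71, 8.80 and 9.04 in the lowest, median and highest animal, beside 8.81, 8.93 and 9.13 in vehicle. The difference was -0.10 ± 0.0558 (adjusted p = 0.899), with 3 of 6 animals below the vehicle range. Psmc4 (1398869_at) lay at 9.05, 9.22 and 9.46 at this dose against 9.25, 9.30 and 9.51 in vehicle. It differed by -0.10 ± 0.0571 with 4 of 6 animals below the vehicle range (adjusted p = 0.899).

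At 943 mg/kg, Psmc2 lay at 10.20, 10.29 and 10.42 against 10.29, 10.38 and 10.47 in vehicle. Its difference was -0.07 ± 0.0491 (adjusted p = 0.875). Psmc5 was the ATPase gene with the smallest p in the upward direction, at 94.3 mg/kg. It lay at 8.96, 9.03 and 9.18 there and at 8.85, 8.96 and 9.04 in vehicle, a difference of 0.10 ± 0.0531 (adjusted p = 0.762). Psmc6 differed by 0.0074 to 0.07 and Psmc3 by -0.09 to -0.0058. The mean of the 6 genes at 0.1 mg/kg lay at 9.39, 9.40 and 9.56 against 9.40, 9.52 and 9.60 in vehicle, so the groups overlapped. The beta-actin difference described below had its highest group mean, 1.22, at 0.1 mg/kg, beside 1.13 in vehicle. With this difference as a covariate, Psmc1 and Psmc4 at 0.1 mg/kg stood at -0.06 and -0.05. Without vehicle replicate 1 they were -0.07 and -0.06.

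Of the 11 non-ATPase subunit genes, 3, 7, 5, 8 and 4 were higher than vehicle in ascending order of dose, with medians of -0.03, 0.02, -0.04, 0.01 and -0.0085. Psmd2, a scaffold that docks ubiquitin receptors, had negative differences at all 5 doses, which share the vehicle arrays. It lay at 9.24, 9.37 and 9.50 in vehicle, at 9.24, 9.26 and 9.31 at 0.94 mg/kg and at 9.14, 9.33 and 9.40 at 943 mg/kg. The differences at 0.1, 0.94 and 943 mg/kg were -0.10, -0.10 and -0.08 with an SE of 0.0510, and the adjusted p was 0.899, 0.999 and 0.868. At 9.4 mg/kg Psmd2 and Psmd3, a lid subunit, differed by -0.05 and -0.06. Psmd2 at this dose was -0.03 without vehicle replicate 1, and Psmd3 was -0.03 without vehicle replicate 4. At 943 mg/kg Psmd2 was -0.05 without replicate 2 of the dose.

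In the upward direction, Psmd6, a lid subunit, lay at 9.38, 9.45 and 9.56 at 0.1 mg/kg and at 9.27, 9.33 and 9.49 in vehicle. The difference was 0.10 ± 0.0458 (adjusted p = 0.883), and 1 of 6 animals exceeded the vehicle range. Psmd12, another lid subunit, lay at 7.85, 8.01 and 8.05 at 9.4 mg/kg and at 7.60, 7.90 and 7.97 in vehicle. The difference was 0.14 ± 0.0614 (adjusted p = 0.980), and 4 of 6 animals exceeded the vehicle range. Without vehicle replicate 6, the animal at 7.60, the difference was 0.09. Psmd11, a lid subunit with 3 probe sets, differed by -0.04 at 9.4 and 94.3 mg/kg and by 0.03 at 943 mg/kg on its brightest one, and by -0.05 at 94.3 mg/kg on 1376069_at. Without vehicle replicate 3 the 3 negative values were -0.02, -0.02 and -0.03, and without vehicle replicate 5 they were -0.07, -0.07 and -0.08. Probe sets below every array median, whose differences are uncertain in size, gave -0.09 and -0.14 for Psmc4 at 0.94 and 943 mg/kg and -0.08 for Psmd11 at 0.94 mg/kg. They gave -0.08 for Psmb5 at 94.3 mg/kg and 0.11 for Psmd9 at 943 mg/kg, and none passed. Each of these moved by over 1.5 times without 1 animal, the Psmc4 value at 0.94 mg/kg to -0.03 without replicate 4 of that dose.

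Psmd14, the deubiquitinase of the lid that removes ubiquitin from bound substrates, has 3 probe sets. At 9.4 mg/kg the brightest (1383429_at) lay at 9.30, 9.40 and 9.42, against 9.16, 9.27 and 9.37 in vehicle. The difference was 0.11 ± 0.0517 (adjusted p = 0.980), and 0.09 on 1394082_at. The probe set 1386073_at had the largest difference of the 45 at this dose, 0.33 ± 0.146, from 6.05, 7.28 and 7.55 in vehicle to 7.14, 7.40 and 7.59. Vehicle replicate 1 alone lay at 6.05, and without that animal, the array of lowest median correlation with the others, the difference was 0.12.

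Among the assembly chaperones, which guide the ATPase ring together, Psmd5 had the smallest unadjusted p of any member at 94.3 mg/kg. It lay at 9.10, 9.20 and 9.29 at this dose and at 8.97, 9.02 and 9.12 in vehicle, and 5 of 6 dosed animals exceeded the vehicle range. The difference was 0.16 ± 0.0662, or 1.12-fold (adjusted p = 0.621). Psmd5 stood at 0.06 for 943 mg/kg and -0.02 for 0.94 mg/kg. Psmd9 (1368184_at) stood at -0.09 for 0.1 mg/kg and -0.04 for 0.94 mg/kg, with 3 of 6 animals below the vehicle range in each case. The differences were 0.02, 0.03 and 0.06 at the other 3 doses, with an SE of 0.0700. Psmd10 differed by 0.02 to 0.07 over the doses.

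Psmc3ip lay at 5.16, 5.51 and 5.77 in vehicle and at 5.36, 5.62 and 5.81 at 0.94 mg/kg. The difference of 0.17 ± 0.0759 did not pass (adjusted p = 0.999), and only 1 animal exceeded the vehicle range. At 0.1 and 94.3 mg/kg it differed by 0.16 and 0.15 against the same vehicle animals. Without vehicle replicate 4 these 3 differences were 0.12, 0.10 and 0.09, and without vehicle replicate 1 they were 0.24, 0.22 and 0.21, in the order 0.94, 0.1 and 94.3 mg/kg.

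A moderated F test over the 5 doses and a linear trend on dose rank (0 to 5) called no member and no other probe set (0% called). At an unadjusted p under 0.05 they gave 0 of 45 members, beside 5.35% of all probe sets for the F test and 5.68% for the slope of the trend. In the upward direction the smallest p belonged to Psmd9 (1368184_at, 0.02 per rank, limma adjusted p = 0.875), Psma1 (0.01) and Psmd5 (0.02). In the downward direction it belonged to Psmd11 (1376069_at, -0.01), Psmd7 (1379322_at, -0.0082) and Psmc4 (1381794_at, -0.01), with adjusted p from 0.907 to 0.938. The brightest probe set of Psmd7 had a slope of -0.0039.

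Within dose groups the members differed little between animals. The residual SD of the 34 genes had a median of 0.0835 log2 and ranged from 0.0619 to 0.131. The median over all probe sets was 0.145, and all 34 genes lay below it. Dim and bright probe sets differ in spread, so the comparison was repeated above a mean of 8. There the median was 0.0809 for 32 member probe sets and 0.105 for all 3729 probe sets. The lowest residual SDs belonged to Psmd11 (0.0619), Psma6 (0.0637) and Psmd6 (0.0639). The highest were those of Psmc3ip (0.131), Psma3 (0.122) and Psmd9 (0.118). Psmd14 1386073_at, with a residual SD of 0.268, was the widest of the 45 probe sets.

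Most members varied with the mean of the others between animals. For each member, the Pearson correlation of its within-group deviation with the mean deviation of the members of other genes was taken over 36 animals, as a description. Points share the array and its normalisation. The median r was 0.51 (Spearman 0.48), and 41 of 45 values were above 0. For the other 30997 probe sets the median was -0.0063 with quartiles of -0.14 and 0.14. An r above 0.5 was found for 23 of 45 members and for 0.907% of the other probe sets. Above a mean of 8 the median r was 0.60 for 32 members and 0.10 for the 3697 other probe sets.

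The closest followers were Psmd14 (1394082_at, r = 0.80), Psma2 (0.78) and Psma1 (0.73). At the other end stood Psmd9 (1397686_at, -0.18), Psmb5 (1385531_at, -0.09) and Psmd14 (1386073_at, -0.09). The first 2 of these lay below every array median. Bright members with little shared variation were Psmd11 (1374712_at, r = 0.0045) and Psmd5 (0.10), named after their values were seen. Within single groups of 6 animals the median r was 0.36 in vehicle and 0.47, 0.74, 0.47, 0.50 and 0.39 in ascending order of dose. An r above 0.5 was then common among the other probe sets, at 13.8% in vehicle and 18.1%, 18.6%, 20.1%, 15% and 15.3% at the doses. Above their 95th percentile lay 3 of 45 members in vehicle and 7, 20, 10, 13 and 10 at the doses. Leaving out the 2 animals whose member mean lay farthest from the median gave 0.45.

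**Figure D3:**
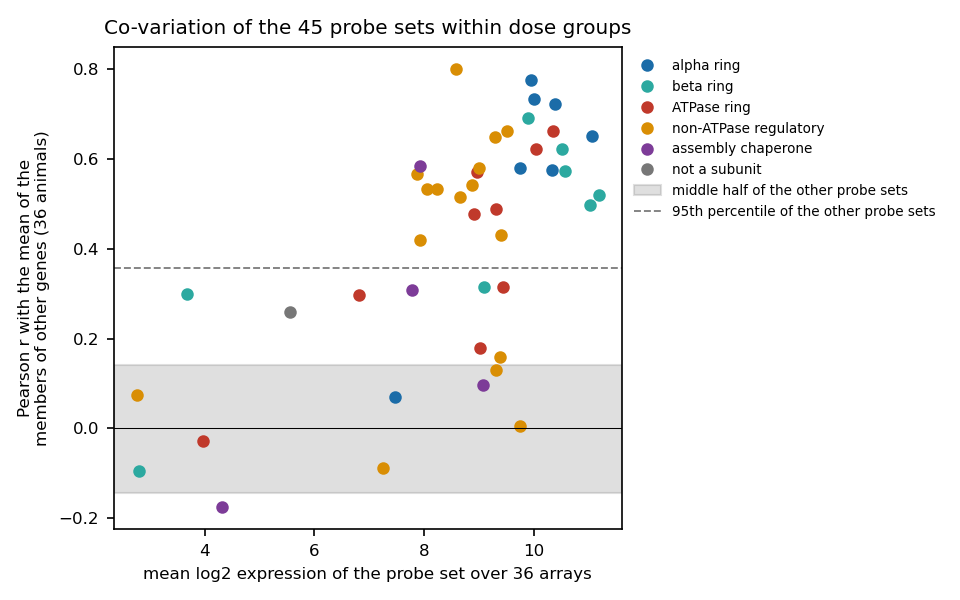
Pearson r of each of the 45 probe sets with the mean of the members of other genes, over the within-group deviations of 36 animals (y axis), against its mean log2 expression (x axis). The grey band spans the quartiles of the other probe sets, from -0.14 to 0.14, and 28 members lie above their 95th percentile of 0.36 (dashed line).

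The mean of the 45 probe sets spanned 8.42 to 8.60 over the 36 livers. The lowest was replicate 2 at 0.94 mg/kg, where 36 of 45 probe sets lay below their group mean, and the highest was replicate 6 of the same group, where 38 lay above. The split was near even in some livers, such as vehicle replicate 3 with 23 above and 22 below. The mean of the 45 probe sets in replicate 3 at 943 mg/kg was 8.59, with 37 above. One sign of RNA quality moved with this mean: the log2 difference between the 3′ and 5′ probe sets of beta-actin, which grows as RNA or its labelled copies shorten. Its within-group r with the member mean was -0.62 (Spearman -0.50), and -0.50 without the 2 farthest animals. The beta-actin difference was 1.51 in the lowest liver, the largest of all 36, and 1.07 and 1.05 in the high ones. Vehicle replicate 6 had a low member mean of 8.44 at a beta-actin difference of 1.10.

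The same measure from GAPDH had r = -0.22, and -0.06 without the 2 farthest animals. Single members had a median r of -0.33 with the beta-actin difference, while all probe sets with a mean above 8 had -0.09. With the beta-actin difference regressed out, the median r among members was 0.37, with 39 of 45 above 0. An r above 0.5 was then found for 14 members and for 0.419% of the other probe sets. The part of RNA quality in the shared variation beyond these values was not tested.

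**Figure D4:**
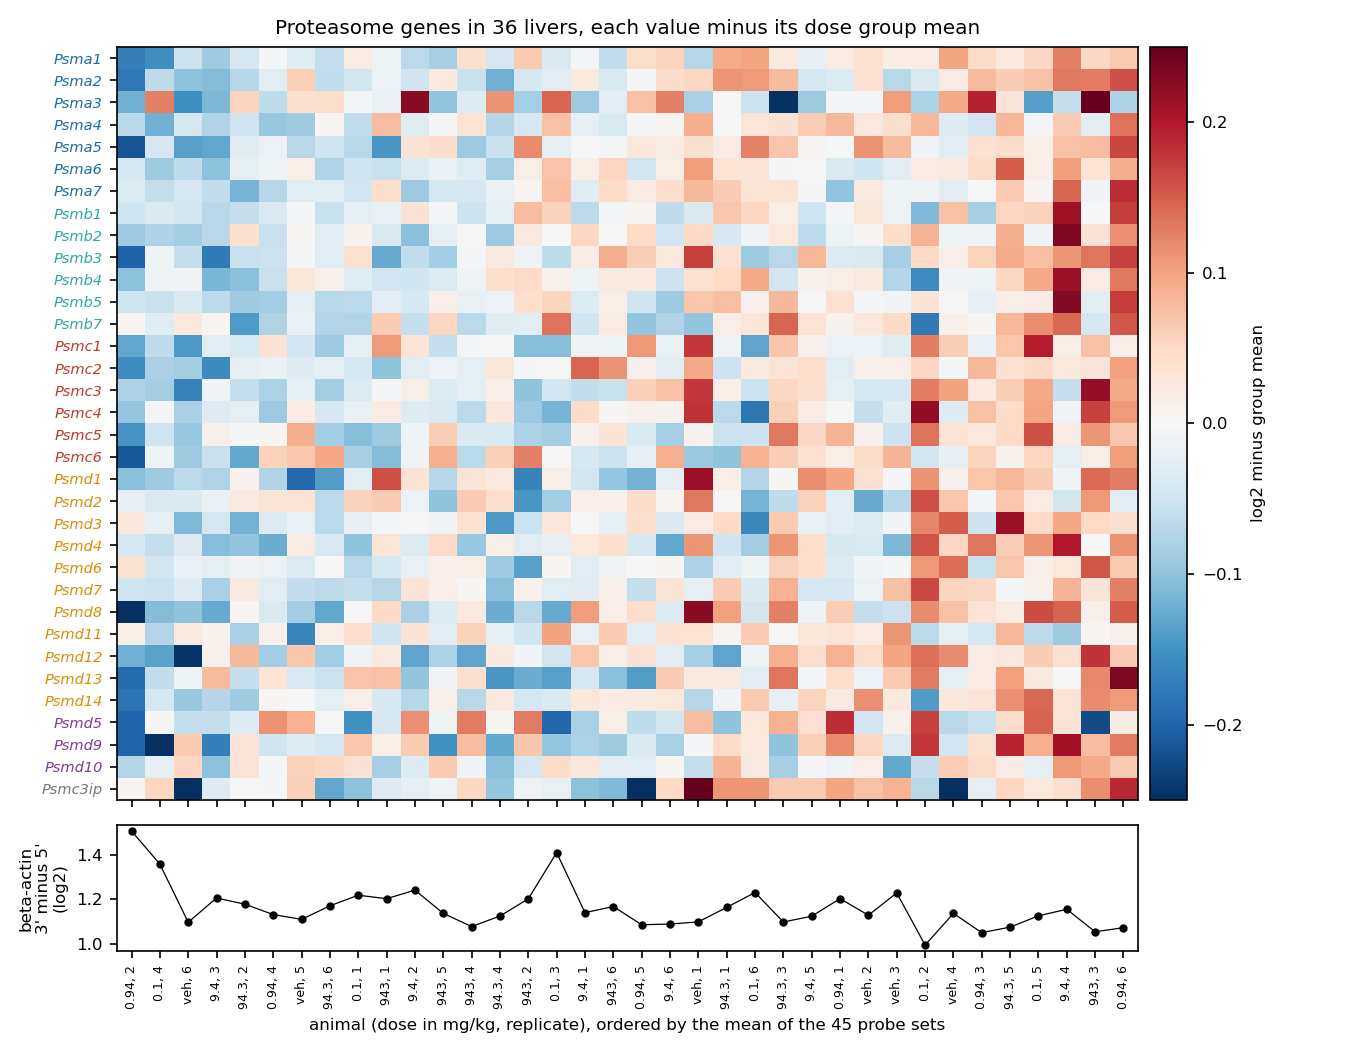
Log2 expression minus the dose group mean for 34 genes (rows, probe set of highest mean, names coloured by subunit group) in 36 animals (columns, dose and replicate), with colours capped at 0.25 in either direction, over the beta-actin 3′ minus 5′ difference of each array. Animals are ordered by the mean of the 45 probe sets minus its group mean, from replicate 2 at 0.94 mg/kg (36 of 45 below the group mean) to replicate 6 at 0.94 mg/kg (38 of 45 above).

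Pairs of members were also described by particle and ring. The median pairwise r over 36 animals was 0.51 for 78 pairs of core genes, 0.38 for 136 pairs of regulatory genes and 0.28 for 221 pairs across the particles. By ring it was 0.46 for alpha, 0.54 for beta, 0.50 for ATPase and 0.32 for non-ATPase genes. These are descriptions of pairs that share animals, without a test. No value for pairs of other probe sets, or with the beta-actin difference regressed out, stands beside them. Probe sets of the same gene did not always agree in their deviations. The r between the brightest and another probe set was 0.60 and 0.58 for Psmc6, 0.58 and 0.33 for Psmd14 and 0.51 for Psmd7. It was 0.38 and 0.12 for Psmd11, 0.23 and 0.12 for Psmb5, 0.20 for Psmd9 and -0.05 for Psmc4. The values of 0.12 for Psmd11, both values for Psmb5, and those for Psmd9 and Psmc4 involve probe sets below every array median.

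The interferon-induced subunits Psmb8, Psmb9 and Psmb10, which replace the constitutive catalytic subunits in the immunoproteasome, varied more widely between animals. In the same 36 livers, Psmb8 ranged from 7.42 to 9.64, Psmb9 from 7.19 to 8.82 and Psmb10 from 6.84 to 7.92. Their residual SDs were 0.656, 0.493 and 0.258, beside 0.0734 for Psmb5 and 0.0869 for Psmb7. In vehicle alone, Psmb8 lay at 7.80, 8.41 and 9.47 in the lowest, median and highest animal. Psmb8 and Psmb9 followed each other with r = 0.97, and Psmb10 followed them with 0.72 and 0.74. Their r with the mean of the constitutive members was 0.13, 0.16 and 0.33, and the last was 0.13 without the 2 farthest animals. At 9.4 mg/kg Psmb8 and Psmb9 differed from vehicle by 0.35 ± 0.350 and 0.31 ± 0.264, within the spread between animals (limma adjusted p = 0.980 for both).

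**Figure D5:**
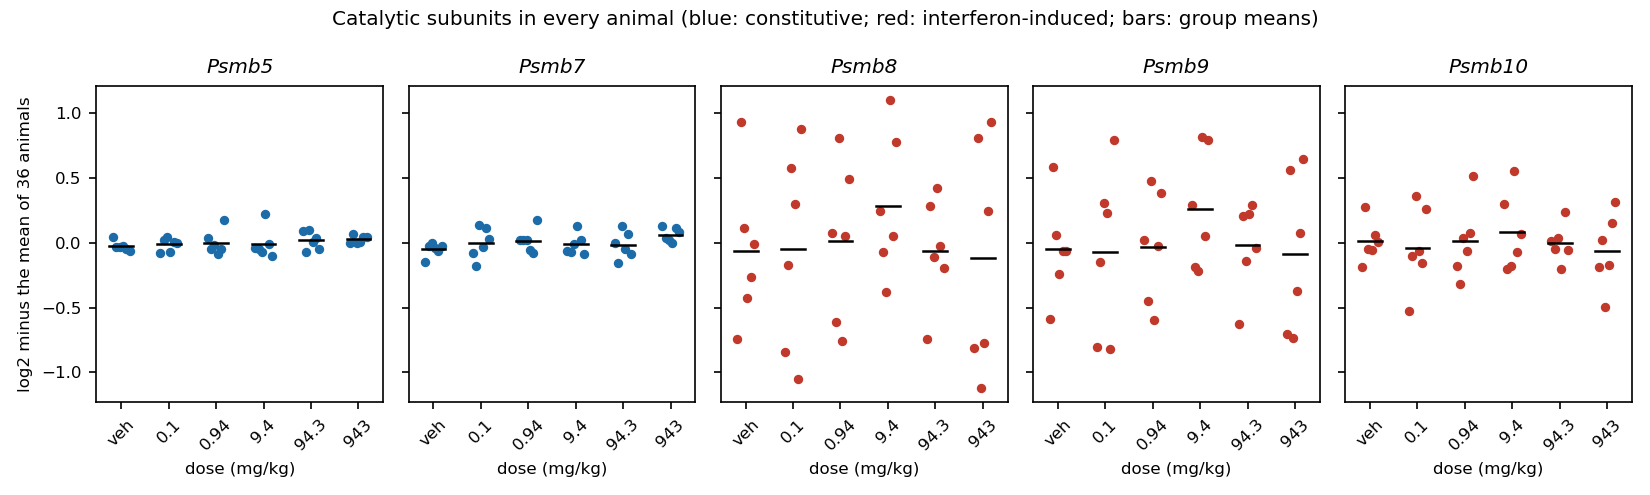
Log2 expression minus the mean of 36 animals (y axis) for the catalytic subunits Psmb5 and Psmb7 (blue) and their interferon-induced counterparts (red) in every animal by dose in mg/kg (x axis, veh is vehicle), with bars at group means. The residual SD is 0.0734 for Psmb5 and 0.656 for Psmb8.

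The other genes of the proteasome pathway were read from a list of 41, of which 34 were measured. None passed (0 of 34 at each dose, 0% of all probe sets), and at an unadjusted p under 0.05 limma gave 1, 0, 1, 3 and 3 in ascending order of dose, beside the 5.62%, 4.16%, 4.85%, 6.9% and 5.74% of all probe sets given above. Psme4, a proteasome activator of the nucleus, lay at 9.16, 9.21 and 9.40 in the lowest, median and highest vehicle animal. At 943 mg/kg it lay at 9.03, 9.07 and 9.20, with 4 of 6 animals below the vehicle range. The difference was -0.14 ± 0.0478 (adjusted p = 0.865), and -0.12 and -0.13 at 0.1 and 94.3 mg/kg against the same vehicle animals. Uba1, the enzyme that activates ubiquitin, differed by -0.12 ± 0.0527 at 943 mg/kg (adjusted p = 0.865) and by -0.11 at 9.4 mg/kg. Ubqln2, a shuttle for ubiquitinated proteins, differed by -0.13 at 94.3 mg/kg. The assembly factors Psmg1 and Psmg2, which build the alpha ring, gave 0.11 (943 mg/kg) and 0.13 (94.3 mg/kg), both with adjusted p above the threshold (0.865 and 0.719).

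Nfe2l1, the transcription factor of the subunit genes, lay between 6.91 and 7.48 in all animals and differed from vehicle by at most 0.02 in size at any dose. Nfe2l2, the factor of the oxidative stress response, differed by 0.22, -0.03, 0.08, 0.11 and -0.03 in ascending order of dose with an SE of 0.146. At the level of RNA, the only level measured, neither followed the constitutive members between animals, with r of -0.09 and -0.10. Pomp, the maturation factor of the core, followed them with r = 0.50, Psmg2 with 0.65 and the 5 assembly factors with a median of 0.46. Psme1 and Psme2, which form an interferon-induced activator cap, had r of 0.43 and 0.50. Over the 34 genes the median was 0.25. The 95th percentile of r over probe sets other than members was 0.36. Above a mean of 8, against the bright members, it was 0.52. The beta-actin difference, which had r = -0.62 with the member mean, was not regressed out of these r or those of the markers below. Its part in them was not tested.

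Markers of other liver cells were read beside these values. No gene of the 7 lists passed the limma test. Their median r with the member mean was -0.09 for hepatocytes, 0.29 for Kupffer cells and macrophages, 0.16 for T and NK lymphocytes, -0.05 for endothelium, -0.26 for stellate cells, 0.12 for cholangiocytes and 0.16 for the interferon response. The closest single marker was C1qb (0.47). Psmd12 and Psmd14 had their largest differences at 9.4 mg/kg. At this dose 6 of 6 Kupffer cell markers, 6 of 7 lymphocyte markers and 8 of 8 interferon genes were higher than vehicle. The medians were 0.15, 0.17 and 0.39. The lymphocyte markers Cd3d, Gzmb, Cd3e, Nkg7, Cd2 and Cd8a and the interferon genes Ifit3 and Mx1 had means below every array median. Their differences are uncertain in size. Also higher were 3 of 6 hepatocyte, 3 of 4 endothelial, 4 of 5 stellate and 2 of 4 cholangiocyte markers. Over all probe sets 47.1% were higher. At 94.3 mg/kg, 5 of 6 Kupffer, 3 of 7 lymphocyte and 7 of 8 interferon genes were higher, beside 51.6% of all probe sets. There Psmd12 and Psmd14 (1383429_at) had means of 7.86 and 9.26, beside 7.85 and 9.25 in vehicle. The mean of the Kupffer list spanned 7.87 to 8.61 in vehicle and 8.26 to 8.55 at 9.4 mg/kg. The mean of the lymphocyte list, most of whose probe sets were this dim, spanned 4.23 to 4.71 in vehicle and 4.56 to 4.89 at 9.4 mg/kg. Their part in the differences of the subunit genes was not tested.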

How the data were processed

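Liver RNA of 36 rats was hybridised to single-colour Affymetrix rat arrays. The authors deposited log2 expression values per probe set made, per the submitters' processing notes, with affy's RMA, whose version is not given in the sources used here. RMA shrinks small differences of dim probe sets. The range of the deposited log2 values, 1.43 to 14.43, fits that scale. The series' design text names R/maanova for the authors' dose comparisons, and limma was used here in its place.

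The array's 57 control probe sets did not enter the tests. Genes were named from the platform annotation through probe sets naming 1 gene (20826; 436 name several and 9780 none), all 45 member Entrez identifiers matched the reference table, and 0 symbols needed an update. A gene is represented by its probe set of highest mean. All 36 arrays entered 1 model of group means (R 4.3.3, limma 3.58.1, lmFit, contrasts.fit, eBayes), with two-sided p-values, Benjamini-Hochberg adjustment over 31042 probe sets within each comparison and a threshold of 0.05. The fit was tested on simulated data with independent noise per probe set and shifts larger than any difference of a member here. That test does not cover differences of the size seen here, or members that vary together. The number of arrays limits the precision. Co-variation was taken on values minus group means.

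Each sample is a separate animal. No label says that the replicate numbers pair animals. Within-group deviations of same-numbered animals of different groups correlated with a median r of 0.0026 over 90 pairs. That value shows no shared variation by number but cannot exclude a pairing. Scan batch was not analysed here.

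The members and lists were chosen with earlier results of these data known. Named are, by rule, members passing a test, the 3 with the smallest p in each direction per dose and for the slope, the catalytic subunits and their interferon-induced counterparts, the 3 highest and 3 lowest by residual SD and by r, and from the pathway list the smallest p and Nfe2l1, Nfe2l2, Pomp, Psme1 and Psme2. The pathway list holds immunoproteasome, activator, assembly, proteasome-bound, transcription, import and ubiquitin genes. Marker lists cover hepatocytes, Kupffer cells and macrophages, T and NK lymphocytes, endothelium, stellate cells, cholangiocytes and the interferon response.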

Additional observations from a re-analysis of the deposited data

Results flagged for a closer look

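Single livers stood apart from the other 5 of their dose group for 21 probe set values and 1 mean. All 45 member probe sets, those of Psmb8, Psmb9 and Psmb10, and the member mean were read in each dose group, which gave 294 groups tested with Dixon's criterion for 6 samples at the 95% level. Of the 294 groups, 22 were flagged, and chance gives about 5% of groups. Members varied together between animals, so flags of the same liver are not separate events. In vehicle, replicate 1 was high for Psmb5 on 1371348_at (10.61, next 10.54) and 1385531_at (2.93, next 2.80) and for Psmd7 on 1379322_at (9.04, next 8.90). Replicate 4 of vehicle was high for Psmd6 (9.49, next 9.34) and replicate 5 low for Psmc4 on 1381794_at (3.83, next 4.05).

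At 0.1 mg/kg, replicate 2 was high for Psmd7 on 1389245_at (9.21, next 9.05). At 0.94 mg/kg, replicate 2, the liver with the largest beta-actin 3′ minus 5′ difference, was low for Psma1 (9.83) and for Psmd14 on 1383429_at (9.12, next 9.31) and 1394082_at (8.25, next 8.57). Replicate 6 of that group was high for Psmb1 (11.23, next 11.06). At 9.4 mg/kg, replicate 4 was high for Psmb5 on 1371348_at (10.79, next 10.56) and for Psmd3 (7.97, next 7.88), and replicate 3 was low for Psma5 (10.32, next 10.44).

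At 94.3 mg/kg, replicate 3 was low for Psma3 (7.23, next 7.48), replicate 5 low for Psmc4 on 1381794_at (3.67, next 3.99), replicate 6 low for Psmd1 (8.10, next 8.24), and replicate 2 high for Psmd9 on 1397686_at (4.41, next 4.29). At 943 mg/kg, replicate 3 was high for Psma3 (7.72, next 7.45), for Psmc3 (10.22, next 9.9985) and for the mean of the 45 probe sets (8.59, next 8.51), and replicate 1 was low for Psmd7 on 1379322_at (8.68, next 8.84) and on 1389245_at (8.87, next 8.95). The dim probe sets of Psmb5, Psmc4 and Psmd9 lay below every array median.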

How the results depend on the processing

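The count of members called stayed at 0 in limma at each dose, for the F test and for the slope in all 208 alternative values of these 7 counts (filter on dim probe sets, variance model, array weights, normalization, no moderation, 1 probe set per gene, fits of single dose groups, other dose scores, beta-actin as a covariate, and each animal left out in turn). With the replicate block it was also 0, though no label says that the numbers pair animals. The 2-group fit has no counterpart for the F test and the slope. The differences of the named members kept their sign in all 701 alternative values, none passing. Most of them were named for the smallest p in their direction, a choice that favours a stable sign. The median difference of the members moved by less than its spread between animals in 115 of 115 alternative values. That spread ran from an SD of 0.0310 at 94.3 mg/kg to 0.0626 at 0.94 mg/kg. It is about as large as the medians themselves or larger, so the count says little about their stability. Single animals moved the median by over 1.5 times at every dose. At 0.1 mg/kg its sign was not settled, from -0.01 with array medians centred to 0.03 with beta-actin as a covariate. The median r among members moved by more than its spread over groups in 1 of 6 alternatives, to 0.37 with the beta-actin difference regressed out, a choice made after seeing the data. The other 5 lay between 0.45 and 0.62. Regressing out the beta-actin difference, the covariate, the limit on the mean at 8 and leaving out the 2 farthest animals were chosen after seeing the data.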

Other observations

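The sign of single members was less settled than the counts when the beta-actin difference was added as a covariate: 39, 39, 40, 45 and 45 of the 45 probe sets kept it in ascending order of dose, with 0 probe sets called at any dose.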
